A study of Rattus norvegicus with 9 samples.

Results

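S100a8, S100a9, Np4, Tpsb2 and Kit are 5 transcripts known from neutrophils and mast cells, and they were followed in the dorsal root ganglia (DRG) of rats with streptozotocin (STZ) diabetes. The 5 genes were selected with the group differences of these same arrays already known, so their differences between groups are given as a description with standard errors, and the number that passed the test across all genes is given without support being drawn from it. Each was read by the probe sets annotated to its symbol alone, which gave 1 probe set per gene, 5 of 15866 probe sets and 5 of 10411 genes in all. All 5 were among the 6989 genes bright enough to be tested. The ganglia came from spinal levels L4 to L6 of Sprague-Dawley rats, whose age the labels leave out, and hold sensory neuron cell bodies, glia, vessels and blood. Of the 3 groups, the first was normal rats given vehicle, the second was STZ-injected rats given vehicle, and the third was STZ-injected rats dosed with FK1706, a ligand of immunophilins at a dose that the labels leave out. STZ kills the pancreatic beta cells that make insulin, and both STZ groups carry it. Each group has 1 array for each of 3 weeks of dosing, taken on the following day, and each array holds the pooled RNA of 5 rats, so spread between rats was not measured. Precision is limited by the small number of arrays.

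Neutrophils are short-lived white blood cells that carry preformed antimicrobial proteins. S100a8 and S100a9 encode the paired calcium-binding proteins that form calprotectin, a main protein of the neutrophil cytosol and a ligand of Toll-like receptor 4 and of the receptor RAGE. Np4 encodes a neutrophil alpha-defensin, a small granule peptide that damages microbial membranes. Mast cells live in tissue, among them the connective tissue around nerves and ganglia, and release granules that hold histamine and proteases. Tpsb2 encodes a mast cell tryptase, and Kit encodes the receptor for stem cell factor on which mast cells depend, a receptor that some sensory neurons also make.

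The starts of these genes are shown because S100a9, Np4 and Tpsb2 are the members whose values differed most between pools. RefSeq promoters of the GRCr8 assembly were found by symbol for 4 of the 5 members. The 250 bases upstream of the start are printed 5′ to 3′ for 3 of them, and capitals mark matches to 4 searched motifs. S100a9 lies at chr2:178490623-178490872 on the minus strand, Np4 at chr16:77199643-77199892 on the minus strand and Tpsb2 at chr10:14886060-14886309 on the plus strand.
S100a9: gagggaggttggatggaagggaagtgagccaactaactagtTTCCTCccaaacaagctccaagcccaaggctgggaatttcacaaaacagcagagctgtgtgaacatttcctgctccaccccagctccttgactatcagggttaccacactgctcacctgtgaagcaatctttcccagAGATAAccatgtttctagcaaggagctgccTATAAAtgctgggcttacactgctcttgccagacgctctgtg
Np4: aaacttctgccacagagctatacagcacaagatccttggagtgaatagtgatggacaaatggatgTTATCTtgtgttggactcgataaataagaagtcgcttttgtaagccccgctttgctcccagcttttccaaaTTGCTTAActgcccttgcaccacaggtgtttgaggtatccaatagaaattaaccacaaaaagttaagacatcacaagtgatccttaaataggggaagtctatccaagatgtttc
Tpsb2: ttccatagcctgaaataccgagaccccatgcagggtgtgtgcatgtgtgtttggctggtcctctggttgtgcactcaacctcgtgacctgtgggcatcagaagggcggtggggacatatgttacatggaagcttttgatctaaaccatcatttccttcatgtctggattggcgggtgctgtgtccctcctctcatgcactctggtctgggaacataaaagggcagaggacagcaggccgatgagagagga

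The motifs were searched on both strands and did not overlap one another in these 3 windows. They were TATAAA, the TATA box, TTGCNNAA, a core that C/EBP factors bind, AGATAA, a core that GATA factors bind, and GAGGAA, a core that the factor PU.1 binds. The S100a9 window held TATAAA from -42 to -37 relative to the start, AGATAA from -72 to -67, and GAGGAA read on the other strand as TTCCTC from -209 to -204. The Np4 window held a TTGCNNAA match from -114 to -107 and AGATAA, read as TTATCT, from -185 to -180. The Tpsb2 window held none of the 4, and neither did that of Kit, at chr14:32978813-32979062 on the minus strand. Among 33469 promoters of the same length, 12.9% held TATAAA, 9.22% TTGCNNAA, 10.3% AGATAA and 23.3% GAGGAA, so each match is common in itself and is given only as a description of these letters. GC content was 40.8% for Np4, 50.4% for S100a9, 52.8% for Tpsb2 and 70.8% for Kit.

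The deposited arrays were not on one level. Their trimmed mean signal ran from 361 in the week 3 FK1706 pool to 534 in the week 1 normal pool and was lower in later weeks in every group. Values below are therefore log2 signals after quantile normalization, which gives all arrays one distribution, and the deposited signal is named where it is used. On the deposited scale the median of all tested genes was shifted by -0.10 log2 for STZ vehicle against normal, by -0.07 for FK1706 against STZ vehicle and by -0.17 for FK1706 against normal. After quantile normalization the same medians were 0.00. Since different probes bind with different strength, levels are compared between arrays for one gene and never between genes.

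The labelled tissue was borne out by its markers, since all 6 sensory neuron markers were tested and the lowest signal among them, that of Trpv1, was 611.8 units. The cell type names rest on less. Of 10 neutrophil markers, 6 had a probe set of their own, and the 3 that were bright enough to be tested were S100a8, S100a9 and Np4 themselves. The neutrophil receptor gene Cxcr2 ranged from 14.3 to 72.9 signal units over the 9 arrays, and the neutrophil proteases Mmp8 and Mmp9 from 6.4 to 58.8 and from 17.8 to 60.4. Of 10 mast cell markers, 9 had a probe set and 3 were tested, namely Tpsb2, Kit and the transcription factor gene Gata2. Cpa3, the mast cell carboxypeptidase, ranged from 100.3 to 169.9 units and lay just under the filter with a mean log2 signal of 7.30. The chymase genes Cma1 and Mcpt4 were below the 10th percentile of all values, 18.7 units, on 8 and 9 of the 9 arrays. The transcripts are therefore called by gene name below, and no number of cells is read from them. In pooled tissue, fewer cells of a type and less RNA per cell cannot be told apart.

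STZ vehicle pools were first set against normal vehicle pools, to ask how the transcripts of diabetic ganglia differ from those of normal ones. Np4, S100a9 and Tpsb2 had lower means in the STZ pools, by 1.95-fold, 1.56-fold and 1.65-fold, while S100a8 and Kit had means within 0.10 log2 of normal. None of the 5 passed the test across all genes, in which 0.1% of 6989 genes passed, and nothing is read from that count because the members were chosen on this contrast. The largest separation in every one of the 3 lower genes came in the week 3 pools.

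Np4, the defensin, had log2 signals of 7.87, 8.35 and 8.33 in the normal pools of weeks 1, 2 and 3. The STZ vehicle pools had 7.39, 7.57 and 6.70 in the same weeks. All 3 STZ vehicle values were below all 3 normal values, and Np4 was the only member whose groups did not overlap. The share of all tested genes with STZ vehicle entirely below normal was 6.95%. In deposited signal units, Np4 read 261.1, 341.9 and 272.7 in normal pools and 167.1, 163.9 and 79.4 in STZ vehicle pools. The means were 8.19 ± 0.274 (SD, n = 3) and 7.22 ± 0.463 (SD, n = 3), a log2 difference of -0.97 with a standard error of 0.335. The difference widened from -0.48 in week 1 and -0.78 in week 2 to -1.64 in week 3, when it was 3.11-fold. Without the week 3 STZ vehicle pool the log2 difference was -0.46 with a standard error of 0.269.

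S100a9, the larger calprotectin subunit, had log2 signals of 9.93, 10.38 and 10.35 in the normal pools of weeks 1, 2 and 3 and 9.37, 10.13 and 9.23 in the STZ vehicle pools. The STZ pool of week 2 lay above the normal pool of week 1, so the groups overlapped. Within each week the STZ pool was the lower one, by -0.56, -0.25 and -1.12 log2. S100a9 and Np4 were the 2 members lower in all 3 weeks, as were 16.1% of all tested genes. The means were 10.22 ± 0.251 (SD, n = 3) in normal and 9.58 ± 0.482 (SD, n = 3) in STZ vehicle pools, a difference of -0.64 with a standard error of 0.218. Without the week 3 STZ vehicle pool it was -0.29 with a standard error of 0.160.

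Tpsb2, the mast cell tryptase, had log2 signals of 7.71, 7.96 and 8.09 in the normal pools and 7.73, 7.62 and 6.23 in the STZ vehicle pools of weeks 1, 2 and 3. The week 1 pools were 0.03 apart, and a single pool, STZ vehicle of week 3, stood far below the rest. Its deposited signal was 52.8 units against 228.8 in the normal pool of that week, a 3.64-fold difference on the common scale. The means were 7.92 ± 0.195 (SD, n = 3) and 7.19 ± 0.838 (SD, n = 3), and the difference was -0.72 with a standard error of 0.310. The difference was -0.17 with a standard error of 0.174 without that pool, and -0.43 without the normal pool of week 3, so its size rested on the week 3 pools. The STZ vehicle means of Np4 and Tpsb2 both lay under the 7.36 log2 level that the filter asked of the mean over all arrays.

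S100a8, the partner of S100a9 in calprotectin, did not share its steady direction. It had log2 signals of 7.91, 7.88 and 8.51 in normal pools and 7.96, 8.29 and 7.76 in STZ vehicle pools. The STZ pool was 0.04 higher in week 1, 0.41 higher in week 2 and 1.68-fold lower in week 3, a log2 difference of -0.75. The means were 8.10 ± 0.353 (SD, n = 3) and 8.002 ± 0.268 (SD, n = 3), which differed by -0.10 with a standard error of 0.217, by 0.27 without the week 3 STZ vehicle pool and by 0.03 without the week 3 normal pool. Kit, the stem cell factor receptor, had 7.93, 7.998 and 7.76 in normal pools and 7.84, 8.21 and 7.78 in STZ vehicle pools. Its means were 7.90 ± 0.121 (SD, n = 3) and 7.94 ± 0.235 (SD, n = 3), with a difference of 0.04 and a standard error of 0.143. On the deposited scale the Kit difference was -0.05, so it had no settled sign.

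**Figure D1:**
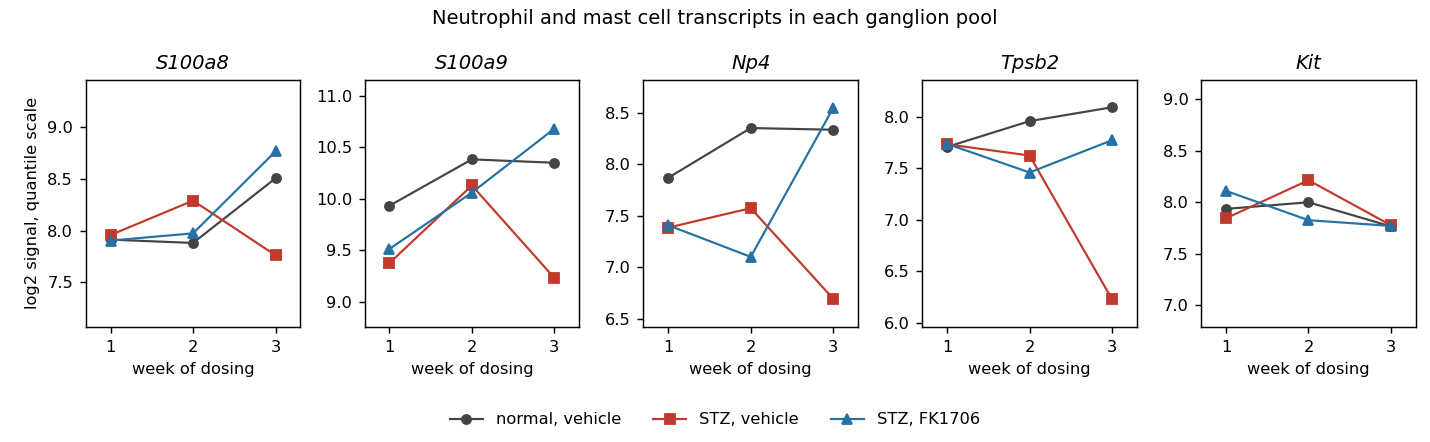
Log2 signal after quantile normalization (vertical axes, one per gene) of S100a8, S100a9, Np4, Tpsb2 and Kit against week of dosing (horizontal axes). Each point is 1 pool of 5 rats, and a line joins the 3 pools of each group. The week 3 STZ vehicle pool is the lowest point for S100a8, S100a9, Np4 and Tpsb2, at 7.76, 9.23, 6.70 and 6.23, and Kit stays between 7.76 and 8.21 in all 9 pools.

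The comparison of FK1706 with vehicle in STZ rats asks how the transcripts of diabetic ganglia differ with dosing. S100a9, Np4 and Tpsb2 had higher means with FK1706, by 1.42-fold, 1.38-fold and 1.38-fold, and in each of them the difference was concentrated in week 3. None of the 5 members passed the limma test, and neither did any other gene (0% of 6989 genes, although 218 had an unadjusted p under 0.05). This contrast uses the same STZ vehicle pools as the one before, so a low value in one of those pools enters both with opposite sign.

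Np4 had log2 signals of 7.41, 7.10 and 8.55 in the FK1706 pools of weeks 1, 2 and 3, against 7.39, 7.57 and 6.70 in the STZ vehicle pools. The FK1706 pool was level in week 1, lower in week 2 and far higher in week 3, with differences of 0.02, -0.47 and 1.85. The mean of 7.69 ± 0.761 (SD, n = 3) exceeded that of STZ vehicle by 0.47 with a standard error of 0.335. In week 3 alone the difference was 3.61-fold. It was -0.05 without the week 3 STZ vehicle pool and -0.06 without the week 3 FK1706 pool, so the direction of the mean difference rested on both pools of that week.

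S100a9 had log2 signals of 9.51, 10.06 and 10.68 in the FK1706 pools. These differed from STZ vehicle by 0.14 in week 1, -0.07 in week 2 and 1.45 in week 3, the last a 2.73-fold difference. The mean was 10.08 ± 0.584 (SD, n = 3), higher by 0.51 with a standard error of 0.218, and by 0.15 without either the STZ vehicle or the FK1706 pool of week 3. The week 3 FK1706 pool, at 10.68, was the highest of all 9 pools for S100a9.

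Tpsb2 had log2 signals of 7.74, 7.46 and 7.77 with FK1706, a narrow range beside the 6.23 of the week 3 STZ vehicle pool. The differences were 0.00, -0.16 and 1.54 in the 3 weeks. The mean of 7.66 ± 0.172 (SD, n = 3) was higher by 0.46 with a standard error of 0.310, lower by -0.10 without that one pool and higher by 0.20 without the week 3 FK1706 pool.

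S100a8 had log2 signals of 7.90, 7.97 and 8.77 with FK1706, and its differences from STZ vehicle were -0.05, -0.32 and 1.01. The mean was 8.21 ± 0.481 (SD, n = 3), higher by 0.21 with a standard error of 0.217, and it was -0.15 without the week 3 STZ vehicle pool and -0.02 without the week 3 FK1706 pool. Kit had 8.11, 7.82 and 7.77 with FK1706 and differences of 0.27, -0.39 and -0.01. Its mean of 7.90 ± 0.182 (SD, n = 3) differed from STZ vehicle by -0.04 with a standard error of 0.143, and by 0.09 without the week 2 FK1706 pool.

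FK1706 pools were also set against normal pools. Of the 5 members 0 passed, as did 0.0143% of tested genes (1 gene by limma, although 573 had an unadjusted p under 0.05). Np4 had a difference of -0.50, which became -0.08 without the week 2 FK1706 pool and -1.03 without that of week 3. It was lower by -0.46 in week 1 and by -1.25 in week 2 and higher by 0.21 in week 3. S100a9 differed by -0.42, -0.32 and 0.33 and Tpsb2 by 0.03, -0.50 and -0.32 in the same weeks, with mean differences of -0.14 and -0.26. The S100a9 value turned to 0.03 or 0.05 without the FK1706 pool of week 1 or 2, and the Tpsb2 value to 0.04 without the normal pool of week 3. S100a8 and Kit had mean differences of 0.12 and 0.00, which became -0.05 and -0.15 on the deposited scale. No member had all FK1706 pools below all normal pools, against 6.07% of tested genes, and no member was lower in each week, against 14.1%.

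**Figure D2:**
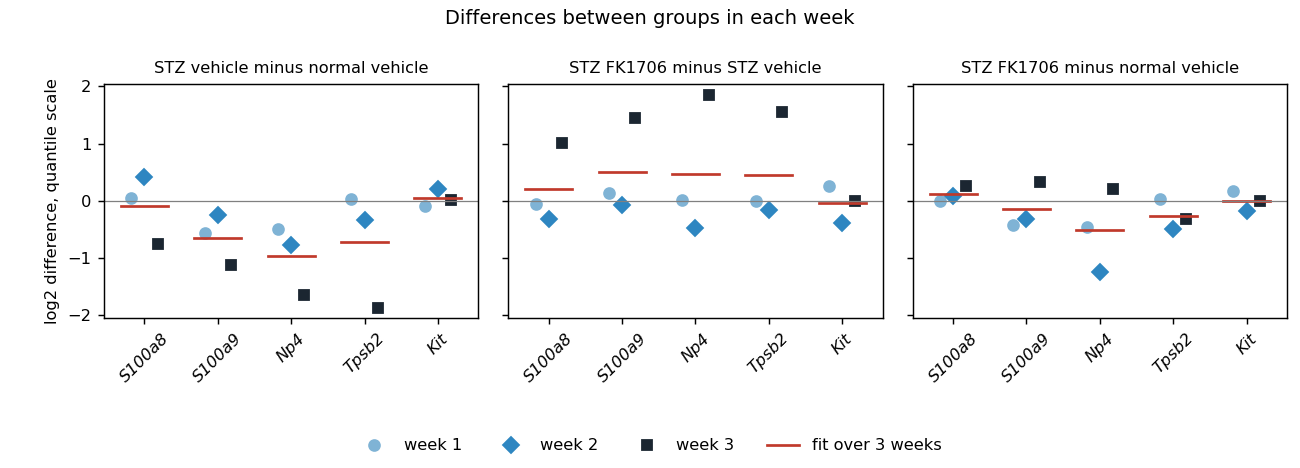
Log2 difference between 2 pools of the same week (vertical axis) for each of the 5 genes (horizontal axis), in 1 panel per comparison. Each point is a single pair of pools, with week shown by marker and colour. A line marks the fit over 3 weeks. For STZ vehicle against normal the points spread from -0.56 to 0.04 in week 1 and from -1.86 to 0.01 in week 3, and for FK1706 against STZ vehicle from -0.05 to 0.27 in week 1 and from -0.01 to 1.85 in week 3.

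The week 3 pools carried most of the difference between FK1706 and STZ vehicle for all members but Kit, and that of Tpsb2 between STZ vehicle and normal. Without week 3, Np4 and S100a9 still differed by -0.65 and -0.41 between STZ vehicle and normal. For FK1706 against normal, the values without week 3 were -0.88 and -0.37, larger than with it. The week 3 pools were read one by one because each is a single array. In week 3, 4 of 5 members were at least 1.5-fold lower in STZ vehicle than in normal, against 2.35% of all tested genes. The 5 members had medians of -0.09, -0.25 and -1.12 in weeks 1, 2 and 3, while the median of all tested genes was 0.00, -0.01 and 0.00. For FK1706 against STZ vehicle, 4 of 5 members were at least 1.5-fold higher in week 3, against 1.45% of all tested genes, and the member medians were 0.02, -0.32 and 1.45. The STZ vehicle pool of week 3 held the lowest of 9 values for 4 members, all but Kit, as it did for 13% of tested genes. The FK1706 pool of week 3 held the highest of 9 for S100a8, S100a9 and Np4, as it did for 12.4%. These shares describe the pools, and because the members were chosen on group differences of these arrays nothing further is read from them.

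Weeks themselves were compared over all groups with an F test in limma. None of the 5 members passed, against 0.0572% of tested genes. S100a9 came nearest, with an unadjusted p of 0.0468 and an adjusted p of 0.471, and was 0.58 log2 higher in week 2 than in week 1 with a standard error of 0.218. The adjusted p was 0.609 for S100a8, 0.872 for Np4, 0.79 for Tpsb2 and 0.663 for Kit. Kit, the steadiest member, was lower by -0.19 log2 in week 3 than in week 1 with a standard error of 0.143.

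The members did not all vary together over the 9 pools. Pearson correlations, given as a description over 9 arrays that share groups and weeks, were 0.84 for S100a9 with Np4 and 0.77 for Np4 with Tpsb2. The first was 0.77 and the second 0.76 without the week 3 STZ vehicle pool, and they were 0.93 and 0.90 after week means were removed. The corresponding Spearman values were 0.87 and 0.80. After the 2 pools furthest from the median of the first-named gene had been left out, the Pearson values were 0.76 and 0.89. The pools left out in this way differed between pairs. The calprotectin pair S100a8 and S100a9 correlated at 0.74, with a Spearman value of 0.60. This pair stood at 0.45 after the 2 pools furthest from the S100a8 median had been left out. It stood at 0.68 without the week 3 STZ vehicle pool and at 0.79 after week means were removed. S100a9 with Tpsb2 stood at 0.61, at 0.33 without the week 3 STZ vehicle pool and at 0.87 after week means were removed. Kit lay between -0.21 and 0.23 with the other members over the 9 pools, and between 0.02 and 0.20 after week means were removed. These values were unstable. Without the 2 pools furthest from the S100a8 median, Kit correlated at 0.69 with S100a8. Without the 2 furthest from the S100a9 median, it correlated at -0.55 with S100a9.

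Among all tested genes, those most like each member over the 9 arrays were named by Pearson correlation. For Np4 they were RatNP-3b, another neutrophil defensin, at 0.97, then Pf4, the platelet chemokine, at 0.91, Arpc4 at 0.90 and Cog4 at 0.90. The value for RatNP-3b was again 0.97 without the week 3 STZ vehicle pool. Rat defensin genes can resemble one another in sequence, so probe sets of Np4, RatNP-3b and Defa5 may share signal and their likeness is uncertain. For S100a9 the nearest were Pdlim4 at 0.93, Vasp at 0.92, Fkbp3 at 0.91 and Nagk at 0.90, and for S100a8 they were Gemin2 at 0.93, Jag2 at 0.90, Syp at 0.89 and Tsc22d3 at 0.89. For Kit they were Krit1 at 0.93, Dusp22 at 0.91, Cox6b1 at 0.90 and Sfxn1 at 0.90. For Tpsb2 they were Id2 at 0.95, Zcchc24 at 0.94, Dcaf11 at 0.94 and Fbxo31 at 0.93, and these dropped to 0.55, 0.63, 0.62 and 0.56 without the week 3 STZ vehicle pool.

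**Figure D3:**
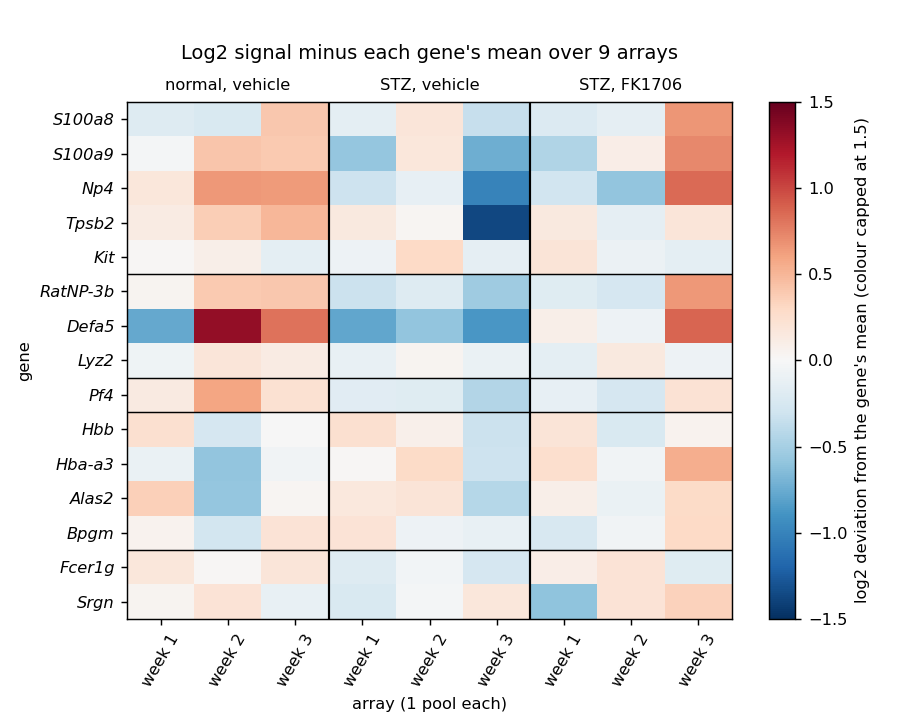
Log2 signal of each gene minus its mean over the 9 pools (colour, capped at 1.5 in either direction), with genes in rows and pools in columns, for the 5 members and for defensin, blood, platelet and mast cell genes. RatNP-3b and Defa5 are low in the week 3 STZ vehicle pool together with Np4 and S100a9, and Hbb is 0.32 log2 lower there than in the normal pool of that week. Lyz2 differs by -0.22 and Srgn by 0.28 between the same pools.

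Other neutrophil genes were few on these arrays. Of 41 genes in a list of neutrophil granule and surface genes, members not included, 19 had a probe set and 6 were tested, with 0 passing in either direction. STZ vehicle minus normal had a median of -0.10 over them and FK1706 minus STZ vehicle one of 0.14, beside a median of 0.00 for all tested genes in both. In weeks 1, 2 and 3 the first median was -0.08, -0.09 and -0.09, and the second was 0.20, 0.17 and -0.01. The list as a whole thus did not show the week 3 differences of the members. RatNP-3b differed by -0.63 with a standard error of 0.210, and by -0.35, -0.59 and -0.94 in weeks 1, 2 and 3. Defa5 is a further defensin on the list, and which cells made it was not determined. It had log2 signals of 6.80, 8.90 and 8.39 in normal pools and 6.79, 6.98 and 6.70 in STZ vehicle pools. The difference was -1.202 with a standard error of 0.361. With FK1706 it had 7.66, 7.496 and 8.45. Genes that other myeloid cells also make had smaller differences, with Lyz2, lysozyme, at -0.13, and Cyba and Cybb, the subunits of the phagocyte oxidase, at -0.06 and 0.06. Fcgr3a, a receptor for the tail of antibodies, stood at 0.32. In week 3 alone, Lyz2, Cyba, Cybb and Fcgr3a differed by -0.22, 0.05, 0.05 and 0.46 between STZ vehicle and normal.

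Of 29 mast cell genes, 22 had a probe set and 5 were tested, with 0 passing. Over these 5, STZ vehicle minus normal had a median of -0.08 and FK1706 minus STZ vehicle one of 0.01. Fcer1g, a signalling chain of the IgE receptor that other myeloid cells share, differed by -0.29 and 0.21 in those comparisons. Srgn, the core protein on which granule contents are packed, differed by -0.08 and 0.01, and Slc18a2, the vesicle transporter of histamine and other amines, by 0.15 and -0.05. Ndst2 and Gata2 differed by -0.09 and 0.07 in the first comparison and by 0.16 and -0.24 in the second. The lower Tpsb2 value of week 3 was not seen in these genes as a set, whose median difference from normal in that week was 0.28. Srgn, Slc18a2, Ndst2 and Gata2 were higher in the STZ vehicle pool of week 3, by 0.28, 0.36, 0.21 and 0.45. Fcer1g alone was lower there, at -0.44 from normal.

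Genes that act beside the members were read from further lists. Of 8 receptors and partners of calprotectin, 7 had a probe set and 3 were tested, and 0 passed. Bsg, Alcam and Myd88, the last an adaptor of Toll-like receptors, differed by 0.06, 0.04 and 0.01 between STZ vehicle and normal. Of 12 other S100 genes 9 were tested and 0 passed, with a median difference of -0.11. S100b, the calcium-binding protein of glia, stood at -0.09, S100a10 at 0.01, S100a6 at -0.25 and S100a11 at -0.11. Of 23 genes of the stem cell factor pathway 17 were tested and 0 passed, with a median of -0.02. Kitlg, which encodes stem cell factor, differed by 0.12 with a standard error of 0.120, and the adaptors Grb2 and Sos1, the phosphatase Ptpn11 and the ubiquitin ligase Cbl by -0.05, 0.13, -0.15 and 0.13. Of 18 neutrophil chemoattractants and growth factors 3 were tested and 0 passed, and Ccl2, Csf1 and C5ar1 stood at -0.09, 0.49 and -0.20.

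Blood in the pools bears on transcripts of circulating cells, so red blood cell and platelet genes were set beside them. Of 20 red blood cell genes 12 had a probe set and 7 were tested, with 0 passing and a median difference of 0.01 between STZ vehicle and normal. Their median was 0.00, 0.33 and -0.26 in weeks 1, 2 and 3, and 0.38 for FK1706 against STZ vehicle in week 3. Their summed signal ranged from 11824 to 15696 in normal, from 11189 to 15514 in STZ vehicle and from 12259 to 15192 in FK1706 pools. Hbb, a beta globin chain, differed by 0.00, 0.33 and -0.32 and Alas2, the erythroid enzyme of heme synthesis, by -0.20, 0.77 and -0.46. Tfrc, the transferrin receptor, which other cells also make, differed by -0.17, -0.29 and -0.16. In week 2 the STZ vehicle pool was higher for the other 6 tested genes of the list and lower for Tfrc, Np4 and S100a9. In week 3 it was lower for all 7 and for Np4 and S100a9. S100a8 had the directions of those 6 genes, at 0.41 in week 2 and -0.75 in week 3. Tpsb2 differed by -0.33 and -1.86 in the same weeks, and Kit by 0.21 and 0.01. Of the list's genes under the filter, Slc4a1 differed by -0.07, -0.20 and -0.89 and Ahsp by 0.32, 0.71 and -0.90. Hemgn, Gata1 and Rhag were higher in week 3, by 0.11, 0.48 and 0.16. For FK1706 against STZ vehicle in week 3, Hba-a3, Slc4a1 and Ahsp differed by 0.86, 0.94 and 1.92. Hemgn, Gata1, Rhag and Gypc differed there by 0.66, 0.07, 0.68 and -0.18. Between STZ vehicle and normal, Pf4 differed by -0.58 with a standard error of 0.161 and was lower in each week, by -0.30, -0.77 and -0.67. F2rl2, the other tested gene of the platelet list, differed by 0.02, -0.24 and -0.003. Of that list's genes under the filter, Itga2b, Ppbp and Gp5 differed by 0.17, -0.12 and 0.14 in week 3, so the list had no common direction. Bone and cartilage genes, from tissue next to the ganglion, had medians of -0.61, -0.75 and -0.64 by week, with 6 of 6 tested genes lower in STZ vehicle. Their summed signal ranged from 2239 to 2752 in normal, from 1379 to 1788 in STZ vehicle and from 1591 to 2014 in FK1706 pools. The part of blood content or of adjoining tissue in the member differences was not tested.

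**Figure D4:**
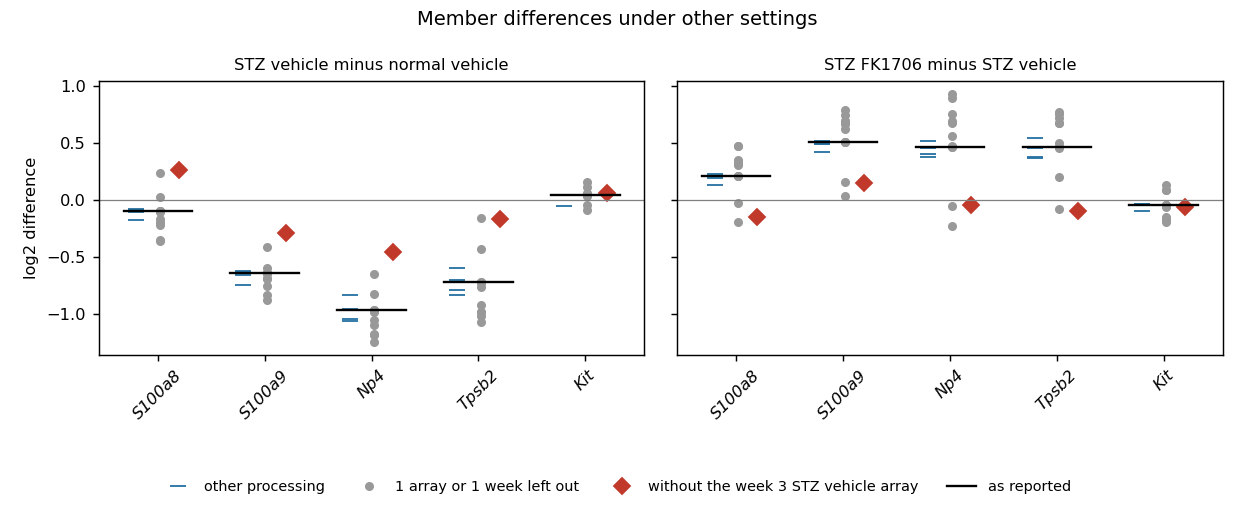
Log2 difference of each of the 5 genes (vertical axis) for STZ vehicle against normal and for FK1706 against STZ vehicle. A line gives the value reported, and marks give other processing and fits that leave out an array or a week. For STZ vehicle against normal, Np4 stays between -1.25 and -0.46 and S100a9 between -0.88 and -0.29, while for FK1706 against STZ vehicle Np4 runs from -0.23 to 0.93.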

How the data were processed

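Each of 9 arrays measured the pooled ganglion RNA of 5 rats. The authors deposited 1 linear intensity for each probe set and array, computed with MAS5 per the submitters' processing notes, which name no version. Because the deposited arrays differed in level, log2(signal + 18.7) was quantile normalized, the offset being the 10th percentile of non-control values. The offset understates the fold changes of dim genes. Of 15866 probe sets without the 57 controls, 12783 had 1 gene symbol in the platform annotation, 312 several and 2771 none. Entrez identifiers found 12748 of the 12783 in the GRCr8 table, with 0 symbols that differ. The brightest probe set stood for each of 10411 genes, and the 6989 that reached the 40th percentile in their mean were tested.

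Group and week entered limma 3.58.1 (lmFit, eBayes with a trend) in R 4.3.3, over all 9 arrays, with two-sided p-values adjusted by Benjamini-Hochberg over all 6989 genes and a threshold of 0.05. The week is a block because each group was sampled once in each week. Standard errors come from that fit, whose variance for each gene is pooled over the 3 groups and shrunk toward a trend over all genes. Each gene therefore has the same standard error in all 3 comparisons. It reflects spread between pools, including change of a difference from week to week, but is not the spread of 1 comparison. For Np4, the SD of the 3 weekly differences was 1.22 for FK1706 against STZ vehicle and 0.60 for STZ vehicle against normal. The standard error was 0.335 in both. A 2% trimmed mean gave the level of each array.

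The members and the 13 gene lists were chosen with earlier results of these data known. The text names the 5 members, the 4 tested genes most correlated with each, and up to 4 tested genes of highest mean per list. Defa5, Fcgr3a, Alas2, Gypc, Kitlg and the red blood cell and platelet genes under the filter fall outside that rule. They were chosen after their values were seen, as were the marker genes named beside the members. Alternatives were the deposited scale, a trimmed-mean scale, other offsets, filters and priors, every probe set, no block, and fits without single arrays or weeks.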

Additional observations from a re-analysis of the deposited data

Results flagged for a closer look

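Several member differences pointed in opposite directions in different weeks by more than a small minimum on either side. Each week holds 1 pool per group, so the difference between weeks was not tested in any of these. For STZ vehicle against normal, S100a8 went from 0.41 in week 2 to -0.75 in week 3, a gap of -1.16 log2. For FK1706 against STZ vehicle, S100a8 went from -0.32 to 1.01 between the same weeks, a gap of 1.32. Np4 in that comparison went from -0.47 to 1.85, a gap of 2.32, the largest among the 8 gaps of this kind. Kit went from 0.27 in week 1 to -0.39 in week 2, a gap of -0.65.

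For FK1706 against normal, S100a9 was lower by -0.42 in week 1 and by -0.32 in week 2 and higher by 0.33 in week 3, gaps of 0.75 and 0.65. Np4 was lower by -0.46 and -1.25 and then higher by 0.21, gaps of 0.67 and 1.46. The week 3 pools take part in 7 of the 8 gaps. Groups of 3 pools were too small for a search for single pools far from the others.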

How the results depend on the processing

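Under 21 other settings, 0 of 303 member values passed the test, and 5 of 15 member differences kept their sign throughout. These were the lower values of S100a9, Np4 and Tpsb2 in STZ vehicle against normal, S100a9 for FK1706 against STZ vehicle and Np4 for FK1706 against normal. In all, 29 values turned their sign and 4 moved by more than the spread between weeks. With a filter at the 60th percentile, S100a9 alone was still tested. Over all genes, 7 passed for STZ vehicle against normal. The count was 16 on the deposited scale, 1 with no replicate block, 0 with no filter (limma gave 787 an unadjusted p under 0.05) and 0 with a prior without trend (569), and from 0 to 6 without single arrays or weeks. It was 0 without the normal or the STZ vehicle array of week 1 or of week 3, and 3 without the STZ vehicle array of week 2. For FK1706 against STZ vehicle it was 0 in every setting run, while limma gave 133 to 387 genes an unadjusted p under 0.05. For FK1706 against normal the count of 1 became 106 on the deposited scale, 2 with every probe set, 0 with no filter (776) and 0 without trend (539), and from 0 to 2 without single arrays or weeks (2 without the week 3 STZ vehicle array and 0 without any other single array). Between weeks the count of 4 became 4489 on the deposited scale, 1 with a trimmed-mean scale, 1 with no filter and 0 without trend (755), and from 0 to 8 without single arrays and up to 19 without the arrays of 1 week. The arrays have no read depth, and their number limits the precision.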

Other observations

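Genes of other cell types were set beside the members. Of 15 macrophage and monocyte genes 8 were tested and 0 passed between STZ vehicle and normal, with a median log2 difference of -0.03. Csf1r, the receptor for the macrophage growth factor, stood at 0.00, and C1qc, Laptm5 and C1qa at -0.17, 0.14 and -0.20. Of 17 lymphocyte genes 3 were tested and 0 passed, with a median of 0.13. Of 17 sensory neuron genes 15 were tested and 0 passed, with a median of 0.00. Of 11 platelet genes 2 were tested and 0 passed, Pf4 at -0.58 and F2rl2 at -0.08.

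Lists for tissue next to the ganglion followed. Of 19 bone and cartilage genes 6 were tested, with a median of -0.62 and with -0.61, -0.75 and -0.64 in weeks 1, 2 and 3, and 1 passed, Col2a1, a collagen of cartilage, at -1.18. Of 16 skeletal muscle genes 10 were tested and 0 passed. Their median was -0.39, and by week it was 0.31, -1.82 and 0.14. In FK1706 against STZ vehicle, 0 genes of any list passed.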
